A study of Mus musculus with 92 samples.

Results

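The genes of the mitochondrial ribosome were taken as the protein-coding genes whose symbol is Mrpl or Mrps followed by a number and nothing else. This rule found 75 genes, 49 named Mrpl and 26 named Mrps, among 21887 protein-coding genes of the RefSeq annotation of the mouse build GRCm38.p6. They are called the members below. The data were peak lists from chromatin immunoprecipitation and sequencing (ChIP-seq) of the insulator protein CTCF and of 3 alternative subunits of cohesin, STAG3, STAG2 and STAG1, 30 lists in all, from a series of 92 samples. In wild-type germline stem cells (GSC) STAG3 had 3 lists, STAG2 had 3 and STAG1 had 2. In wild-type embryonic stem cells (ESC) and epiblast-like cells (EpiLC), STAG2 and STAG1 had 2 lists each per cell type. In the wild-type primordial germ cell-like cells named d2PGCLC and d4c7PGCLC, STAG2 had 3 lists and STAG1 had 2 per cell type. CTCF was read only in GSC that lacked STAG proteins, with 1 list pooled over replicates for each of the genotypes Stag3KO, Stag2Stag3dKO (which keeps STAG1 only), Stag1Stag3dKO (which keeps STAG2 only) and Stag1Stag2dKO (which keeps STAG3 only). All GSC came from the AAG line, which carries the transgenes Acrosin-EGFP and beta-Actin-EGFP, and were sorted for that signal. The other cell types came from the BVSC line BDF1-2-1, which carries Blimp1-mVenus and Stella-ECFP, and its PGCLC were sorted for the Blimp1-mVenus signal. GSC and the line therefore cannot be told apart.

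Mitochondria make a small set of the subunits of the respiratory chain on ribosomes of their own. The proteins of these ribosomes are encoded in the nucleus, made in the cytosol and imported, and each ribosome joins a large subunit, where peptide bonds form, to a small subunit, where the messenger is decoded. In mammals their genes are scattered over the chromosomes and are mostly housekeeping genes. Symbols do not always match the place of the protein: Mrps30 encodes a protein of the large subunit, and the Mrps36 product is known as a part of the 2-oxoglutarate dehydrogenase complex. Cohesin is a ring that forms chromatin loops and holds sister chromatids together, and each ring carries one STAG protein. CTCF bound to DNA is a place at which moving cohesin often stops.

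A gene-end peak is a peak that reaches within 2500 bp of either end of the gene. The lists held between 9641 and 84904 peaks, and each deposited peak had a −log10 q of at least 2. Depth is not part of a list, so a gene without a peak is a gene at which none was called. The 3 STAG3 lists held 12832, 38631 and 39681 peaks. The labels do not say that replicates came from separate cultures, so each p-value below measures the variation among these libraries alone, and that can be technical.

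In GSC, STAG3 was called at the ends of most members in the longer lists. Replicates 1, 2 and 3 had a gene-end peak at 32, 69 and 70 of the 75 members, or 42.7%, 92.0% and 93.3%, beside 27.1%, 60.9% and 61.8% of the other protein-coding genes. The mean was 76.0% ± 28.9 of members and 49.9% ± 19.8 of the others (SD, n = 3 lists each). Within each list the share of members was above that of the others, by 15.5, 31.1 and 31.6 percentage points. 66 members had a peak in both replicate 2 and replicate 3, and 32 had one in all 3 lists, where 26.3% of all protein-coding genes did. STAG3 was missing from all 3 lists at 2 members, Mrpl35 and Mrps9, or 2.67%, beside 33.6% of the other genes.

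STAG2 came next and STAG1 last in GSC, and neither set the members far from other genes there. STAG2 lists of GSC had a peak at 27, 12 and 28 members, a mean of 29.8% ± 12 of members beside 27.7% ± 11.1 of other genes (SD, n = 3). STAG1 lists of GSC had a peak at 6 and 6 members, a mean of 8.00% ± 0 of members beside 9.29% ± 0.791 of other genes (SD, n = 2). The STAG3 counts lay above all 5 of these, and the groups did not overlap. 11 members were in every GSC STAG2 list (13.2% of all genes were) and 4 in both GSC STAG1 lists (7.66%).

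In the other 4 cell types both proteins had a higher share of members than of other genes in every list as deposited; with lists of equal length, described below, this held in 5 of the 8 STAG1 lists. STAG2 was at 49 and 53 members in the ESC lists, 55 and 54 in those of EpiLC, 63, 39 and 47 in those of d2PGCLC and 60, 42 and 47 in those of d4c7PGCLC. STAG1 was at 35 and 25 members in the ESC lists, 15 and 20 in those of EpiLC, 23 and 29 in those of d2PGCLC and 33 and 35 in those of d4c7PGCLC. Within each of the 5 cell types every STAG2 list held more members than every STAG1 list. The STAG2 lists were also the longer ones, except in d4c7PGCLC, where STAG2 replicates 2 and 3, with 35799 and 37236 peaks, were shorter than both STAG1 lists, with 38491 and 42013. Outside GSC, the gap between the mean shares of members and other genes was widest for STAG2 in d4c7PGCLC, at 66.2% ± 12.4 of members and 43.0% ± 8.53 of the others (SD, n = 3). Members in every STAG2 list numbered 44 for ESC (51.6% of all genes), 49 for EpiLC (54%), 37 for d2PGCLC (39.1%) and 36 for d4c7PGCLC (31.6%). Members in every STAG1 list numbered 24 for ESC (23.7%), 12 for EpiLC (11.8%), 23 for d2PGCLC (19.6%) and 30 for d4c7PGCLC (29.1%). CTCF was at 34 members in Stag3KO, 30 in Stag2Stag3dKO, 31 in Stag1Stag3dKO and 33 in Stag1Stag2dKO cells, between 40.0% and 45.3% of members beside between 33.1% and 35.6% of other genes.

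**Figure D1:**
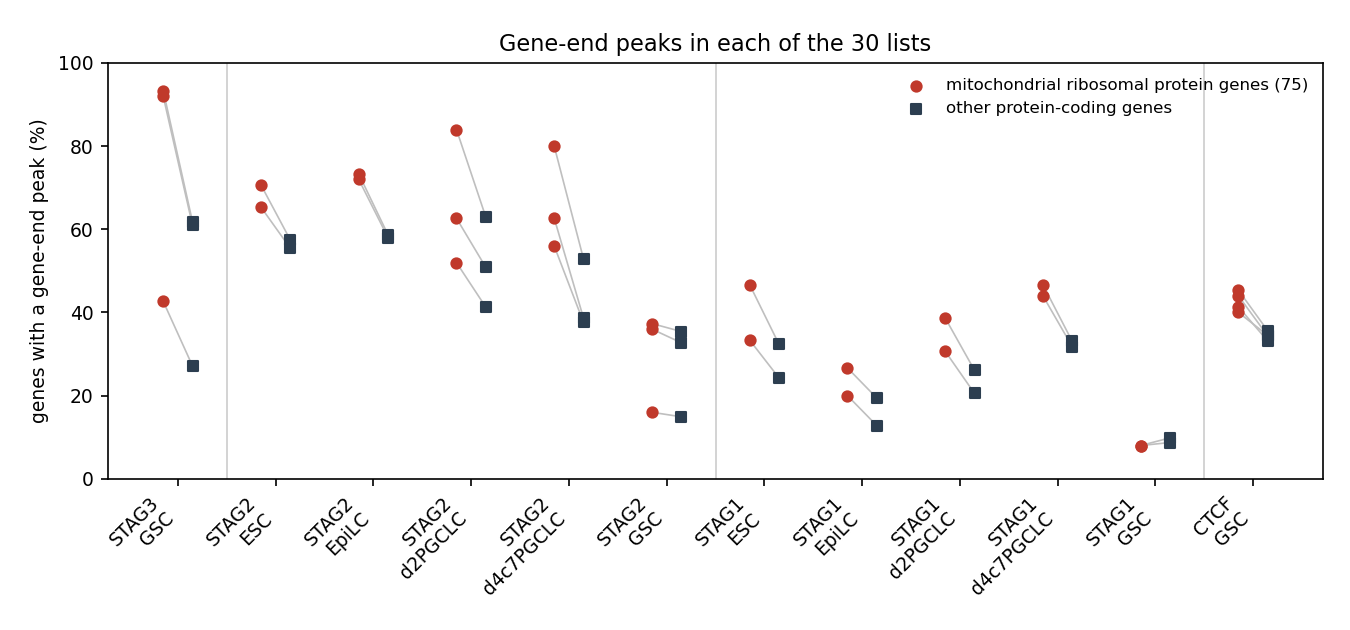
Share of genes with a gene-end peak (vertical axis, percent) in each of the 30 lists, grouped by protein and cell type; red circles stand for the 75 members and dark squares for all other protein-coding genes, and a grey line joins the values of 1 list. The members lie above the other genes in every list except the STAG1 lists of GSC, and the 2 long STAG3 lists reach 92.0% and 93.3%.

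Lists of unequal length were also cut to the 9641 peaks of highest fold enrichment, the length of the shortest STAG list; fold enrichment is the authors' ratio of reads at the summit over the local background. STAG3 then marked 24, 29 and 20 members, a mean of 32.4% ± 6.01 beside 19.7% ± 0.352 of other genes (SD, n = 3). STAG2 of GSC marked 8, 8 and 7 members, or 10.7%, 10.7% and 9.33%, beside 9.17%, 8.90% and 9.48% of other genes, and STAG1 of GSC marked 6 and 6, or 8.00% each, beside 8.73% and 8.48%. In the other cell types STAG2 marked between 10 and 12 members, or 13.3% to 16.0%, beside 8.43% to 9.38% of other genes, and members lay above other genes in all 10 lists. STAG1 there marked between 5 and 12 members, or 6.67% to 16.0%, beside 7.35% to 9.27%. The members lay below other genes in ESC STAG1 replicate 2 (6.67%, beside 8.45%) and in both EpiLC STAG1 lists (6.67% each, beside 8.31% and 7.35%). In GSC the 3 STAG3 counts still lay above the 5 STAG2 and STAG1 counts.

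Of the 26 STAG lists, a member had a gene-end peak in a median of 12, with a range of 0 to 25. 3 members had a peak in 25 lists: Mrpl16, a core protein of the large subunit, Mrpl17, which lies near the exit of the peptide tunnel, and Mrpl53. Mrpl12, which forms the stalk that recruits translation factors, Mrpl23, Mrps16 and Mrps2 had 24. Mrpl22, Mrps14 and Mrps33 had 23, as did Mrpl4. Each of these had CTCF in all 4 genotypes except Mrpl4, which had it in 3. Mrpl35 had no peak in any STAG or CTCF list. Mrpl46 had STAG peaks in 1 list and Mrps22 in 3, all of them STAG3. By subunit, STAG3 was at 74.1% ± 34.2 of the Mrpl genes and 79.5% ± 19.0 of the Mrps genes (SD, n = 3 lists).

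**Figure D2:**
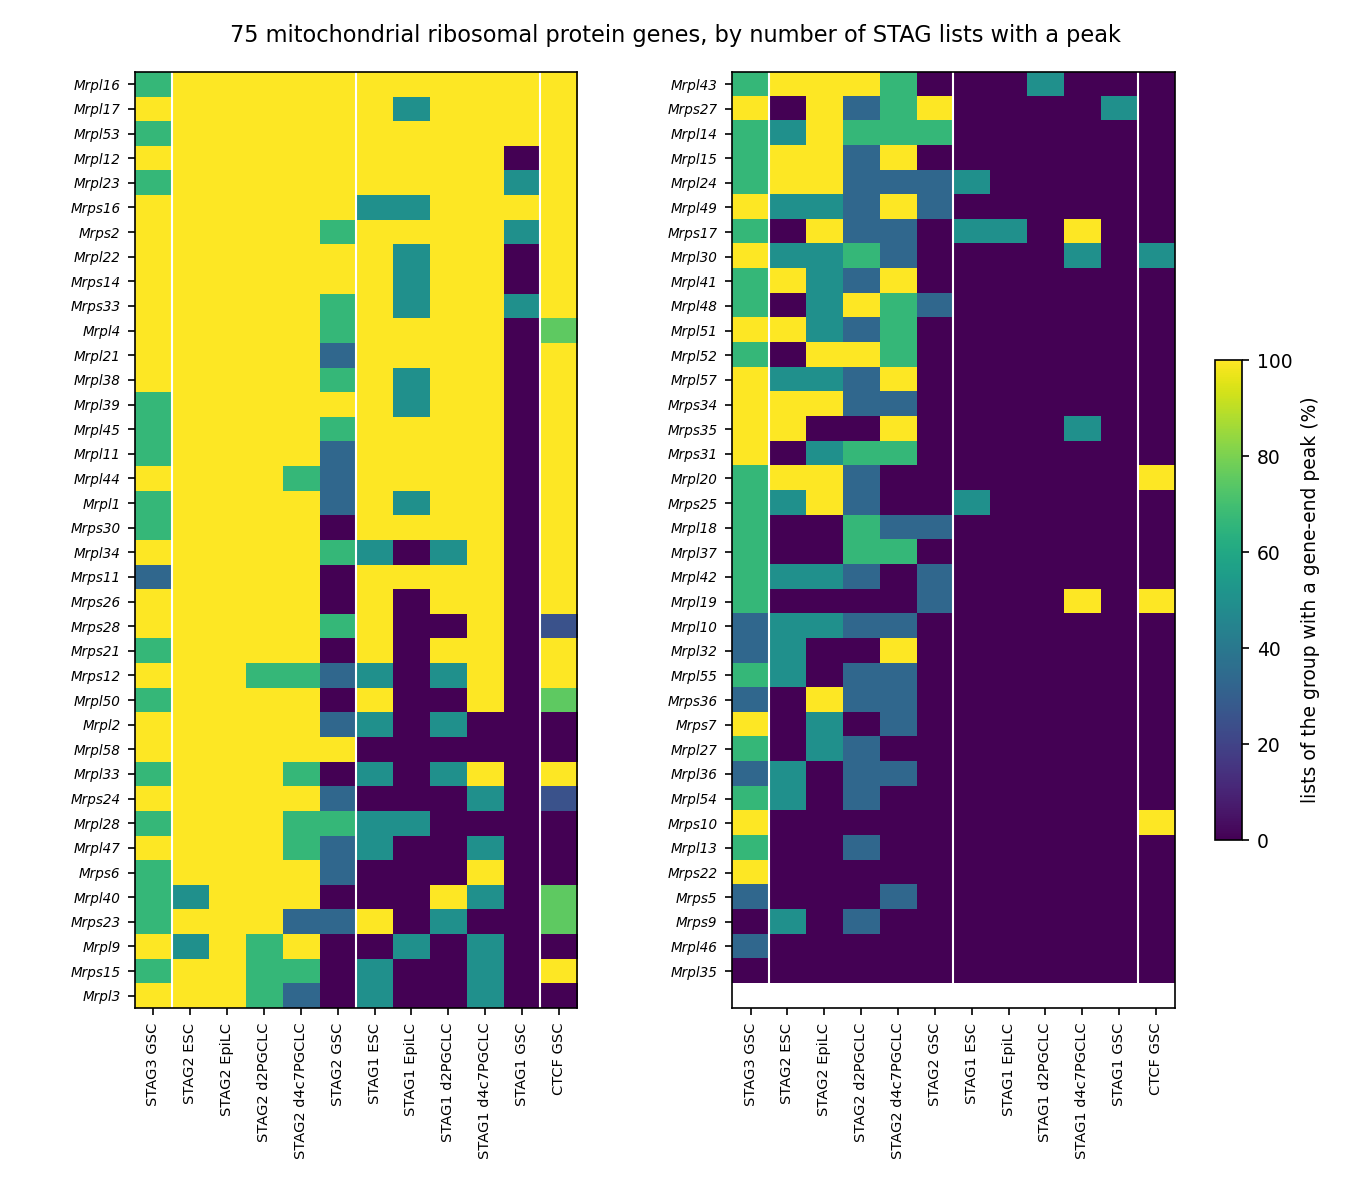
Share of the lists of each group (columns) in which each of the 75 members (rows) had a gene-end peak, from 0% in dark to 100% in yellow; rows run down the left panel and on to the right one, from the gene with most STAG lists, Mrpl16 with 25, to Mrpl35 with 0, and groups hold 2 to 4 lists. The STAG1 columns outside GSC and the CTCF column are mostly filled in the upper rows and nearly empty in the lower ones. The GSC STAG1 column is empty at 67 members, and the STAG3 column is filled nearly to the last row. Rows are ordered by a count that includes STAG1, with ties by CTCF, so the order itself makes part of this gradient.

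Members without STAG1 mostly had no CTCF, and the same held for other genes without STAG1. 30 members (40%, beside 59.0% of other genes) had no STAG1 peak in any list. 28 of these (37.3% of members, beside 52.9% of other genes) had no CTCF peak in any genotype either; the other 2 were Mrps10 and Mrpl20. 28 members had CTCF in all 4 genotypes (31.3% of all protein-coding genes did), 7 in some (6.71%) and 40 in none (62% of all genes). The 7 were Mrpl4, Mrpl40, Mrpl50 and Mrps23 with 3 genotypes, Mrpl30 with 2, and Mrps24 and Mrps28 with 1. Mrps24 and Mrps28 differed in the genotype: Mrps24 had its peak in Stag1Stag2dKO and Mrps28 had its peak in Stag3KO cells. With 1 pooled list a genotype, these differences have no replicate check.

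STAG3 was also called at members without a CTCF peak. Among the 40 members with no CTCF peak, STAG3 replicates 1, 2 and 3 had 14, 34 and 36, or 35.0%, 85.0% and 90%, beside 16.8%, 47.7% and 48.5% of the other genes with no CTCF peak. STAG2 of GSC had 7, 3 and 8 of the same 40, and STAG1 of GSC had 0 and 1. For other genes without CTCF the shares were 18.3%, 3.79% and 21% for STAG2 and 0.214% and 0.569% for STAG1. Among the 28 members with CTCF in all 4 genotypes STAG3 had 14, 28 and 27, STAG2 of GSC had 17, 9 and 17, and STAG1 of GSC had 6 and 5. As shares these were 50.0%, 100% and 96.4% for STAG3 (other genes 47.3%, 85.5% and 86.2%), 60.7%, 32.1% and 60.7% for STAG2 (other genes 62.1%, 38.6% and 64.1%) and 21.4% and 17.9% for STAG1 (other genes 27.4% and 30.2%). Members with CTCF lay above other genes in STAG3 replicates 2 and 3 and near them in replicate 1. For STAG2 and STAG1 they lay below other genes by few members, and no test was made. STAG1 was split by CTCF outside GSC too. In d4c7PGCLC it was at 91.1% ± 2.53 of the members with CTCF and at 10.0% ± 0 of those without (SD, n = 2), while STAG2 was at 84.5% ± 8.25 of members with CTCF and 50.8% ± 16.6 of those without (SD, n = 3). Other genes had a like STAG1 split there, 81.2% ± 1.47 with CTCF and 7.26% ± 0.454 without (SD, n = 2). Their STAG2 shares were 80.8% ± 6.49 with CTCF and 22.9% ± 9.16 without (SD, n = 3). CTCF was read in GSC mutants, so for those cell types it is the place of CTCF in another cell type, line and genotype.

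**Figure D3:**
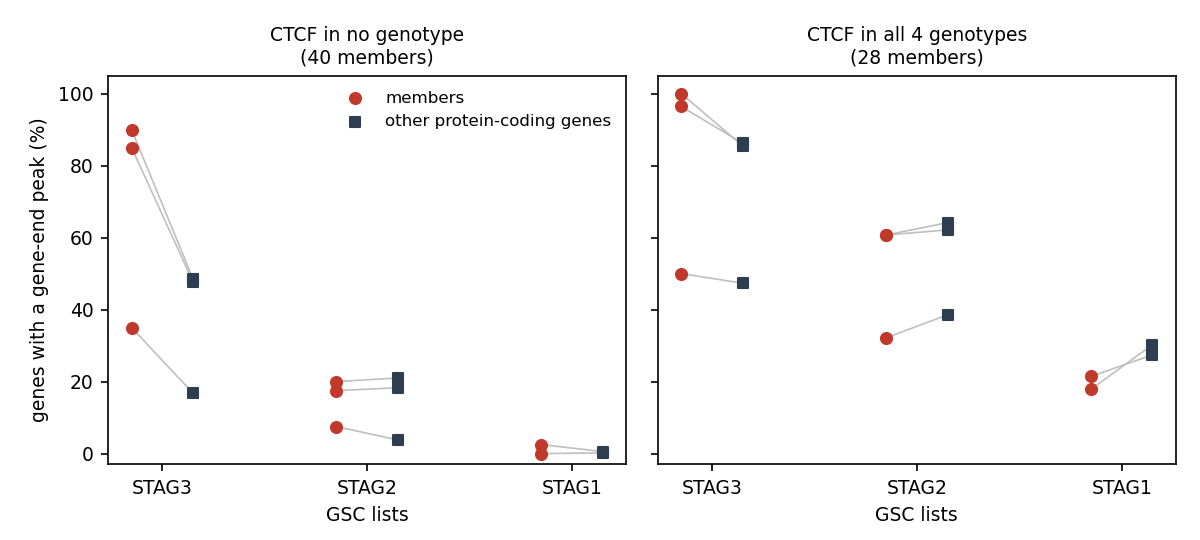
Share of genes with a gene-end peak (vertical axis, percent) in each wild-type GSC list of STAG3, STAG2 and STAG1, for genes without a gene-end CTCF peak (left, 40 members) and with one in all 4 genotypes (right, 28 members); circles are members, squares other genes, and a line joins the values of 1 list. Members without CTCF stand above other genes for STAG3, at 35.0%, 85.0% and 90%, and lie near them for STAG2 and STAG1.

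The larger part of the STAG3 peaks lay at promoters. Of the STAG3 peaks at members whose start is annotated, 18 of 30, 52 of 87 and 49 of 84 had their summit within 250 bp of a start, a mean of 59.4% ± 0.903 beside 40.9% ± 1.67 at other genes (SD, n = 3 lists). The STAG2 share in GSC was 47.7% ± 8.29 beside 35.1% ± 7.11 (SD, n = 3), and CTCF peaks of the 4 genotypes averaged 27.3% beside 16.6%. In GSC STAG1 had 3 of 7 peaks within 250 bp in each of its lists. In ESC the share was 30.4% ± 0.624 for STAG2 and 24.4% ± 1.81 for STAG1 (SD, n = 2 each).

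**Figure D4:**
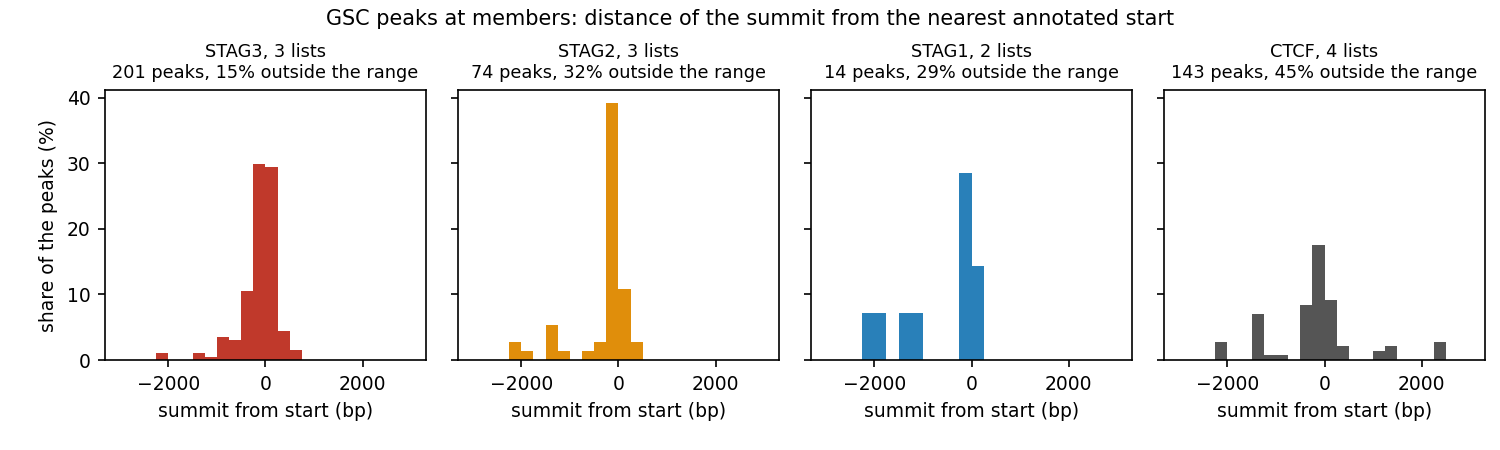
Distance of peak summits from the nearest annotated start of the member (horizontal axis, bp, negative upstream) for GSC peaks of STAG3, STAG2, STAG1 and CTCF; bars give the share of the peaks of each protein (vertical axis, percent) in bins of 250 bp, with the peaks of a protein's lists pooled; peaks outside the axis are counted above each panel. STAG3 peaks gather within 250 bp to either side of the start, and CTCF peaks spread farther.

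Merging overlapping peaks of all lists at each member gave 175 sites, and the sites fell into kinds that differed in place. Peaks at other genes were not merged in this way, so these counts have no background beside them. 61 sites held STAG1, alone or with others; 37 of these had CTCF, and 13 of the 51 with an annotated start lay at it, with a median distance of 2355 bp. 53 sites held STAG2 and STAG3 without STAG1; 1 of these had CTCF, and 32 of 45 lay at a start, with a median distance of 97 bp. 26 sites held STAG3 alone, none with CTCF, and 11 of 23 lay at a start. 34 sites held STAG2 alone, 3 of them with CTCF, and 2 of 32 lay at a start. The remaining site, inside Mrps10, had a CTCF peak within the window; STAG peaks of 2 GSC STAG2 lists and of 18 lists of the other cell types overlapped it but lay just outside the window, so they were not counted for Mrps10. Most sites at a start carried STAG3, and most sites with STAG1 lay away from a start.

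16 sites were called in 20 or more of the 26 STAG lists, and all 16 had CTCF in all 4 genotypes. No such count was made for other genes. STAG2 and STAG3 had 13 and 3 lists, so a site without STAG1 could not reach 20. Sites with STAG1 had CTCF more often than those without, so the cutoff itself favoured CTCF. 6 of the 16 lay at the start of Mrpl17, Mrpl39, Mrps2, Mrps14, Mrps16 and Mrps33, and each of these 6 was in 2 or 3 STAG3 lists. 2 lay at Mrpl38, for which the start is not given here. The other 8 lay away from the start, and 5 of these were in no STAG3 list. Mrpl16 had 2 such sites. Its upstream site at chr19:11768052-11768691 was in 2 STAG3, 13 STAG2 and 10 STAG1 lists, and its downstream site at chr19:11777203-11778179 was in 0 STAG3, 13 STAG2 and 10 STAG1 lists. At Mrpl53 a site upstream of the gene, chr6:83107399-83108226, was in 0 STAG3, 13 STAG2 and 10 STAG1 lists, while a weaker one at the start, chr6:83108879-83109206, was in 2 STAG3, 1 STAG2 and 0 STAG1 lists without CTCF. Mrpl44, Mrpl21 and Mrpl12 also had 2 kinds of site, but their CTCF site lay near or beyond the far end. At the start of each, a site without CTCF was shared by STAG3 and some STAG2 lists. The CTCF site of Mrpl12 was also in 1 STAG3 list.

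The same split was seen among CTCF sites of GSC, taken as intervals with CTCF in all 4 genotypes. 9 such sites lay within 250 bp of a member's start, and STAG3 replicates 1, 2 and 3 covered 6, 8 and 8 of them. 22 lay farther from it, and STAG3 covered 2, 7 and 6. For other genes the shares were 47.8%, 86.8% and 88.3% of 1031 sites near a start and 24.4%, 47.9% and 48.9% of 4800 sites farther away, so the split ran the same way outside the members. STAG2 in GSC covered 7, 3 and 7 of the 9 and 12, 7 and 14 of the 22, and STAG1 covered 3 and 2 of the 9 and 4 and 4 of the 22. For other genes STAG2 covered 63.6%, 38.7% and 66.6% of the sites near a start and 44.7%, 31.0% and 44.5% of those farther away, and STAG1 covered 27.4% and 30.5% near and 23.7% and 26% farther away. The exception at a start was Mrpl20, whose CTCF site at chr4:155802523-155803118 was in 2 STAG2 lists and in no GSC STAG list; a site 581 bp downstream of its start was in 2 STAG3 lists and had no CTCF.

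The promoters below show both kinds of site. Each is the 250 bases before the annotated start, from the RefSeq promoter table of GRCm38.p6, read 5′ to 3′ on the gene's strand. 66 of the 75 members have a promoter there. Capitals mark 4 motifs on either strand: the CTCF core letters AGGGGGC, the NRF1 letters (GCGCA, any base, GCGC), the ETS letters CCGGAAG and the YY1 letters AAGATGGC. NRF1 and the ETS factor GABP are known activators of nuclear genes for mitochondrial proteins, and YY1 is a widely expressed factor that binds many promoters. The genes were chosen after their values were seen, from members that held at least 1 motif. Mrpl17 (chr7:105811088-105811337, minus strand), Mrpl39 (chr16:84735245-84735494, minus strand) and Mrps26 (chr2:130563507-130563756, plus strand) carried CTCF at the start in all 4 genotypes:
Mrpl17: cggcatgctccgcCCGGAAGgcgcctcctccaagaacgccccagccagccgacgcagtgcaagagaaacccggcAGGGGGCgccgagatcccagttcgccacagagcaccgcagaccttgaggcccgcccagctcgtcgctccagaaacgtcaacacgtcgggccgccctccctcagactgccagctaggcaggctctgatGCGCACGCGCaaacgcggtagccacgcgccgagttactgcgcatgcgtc
Mrpl39: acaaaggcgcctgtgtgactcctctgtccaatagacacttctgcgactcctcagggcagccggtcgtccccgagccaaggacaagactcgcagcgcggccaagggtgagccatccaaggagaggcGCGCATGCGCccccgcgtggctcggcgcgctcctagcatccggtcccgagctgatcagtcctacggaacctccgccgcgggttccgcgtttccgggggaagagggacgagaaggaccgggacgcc
Mrps26: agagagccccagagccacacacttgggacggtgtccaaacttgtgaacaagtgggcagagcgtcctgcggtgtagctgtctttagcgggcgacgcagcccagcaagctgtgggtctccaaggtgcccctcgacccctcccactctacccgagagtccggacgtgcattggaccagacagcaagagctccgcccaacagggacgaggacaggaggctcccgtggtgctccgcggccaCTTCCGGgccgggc
Mrps22 (chr9:98601680-98601929, minus strand), Mrpl3 (chr9:105053018-105053267, plus strand) and Mrps27 (chr13:99344536-99344785, plus strand) carried STAG3 at the start in all 3 lists and CTCF in no genotype:
Mrps22: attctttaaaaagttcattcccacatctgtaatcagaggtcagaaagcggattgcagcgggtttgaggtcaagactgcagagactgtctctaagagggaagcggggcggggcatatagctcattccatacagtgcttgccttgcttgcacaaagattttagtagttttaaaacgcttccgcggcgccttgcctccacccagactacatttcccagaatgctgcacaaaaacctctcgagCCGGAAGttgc
Mrpl3: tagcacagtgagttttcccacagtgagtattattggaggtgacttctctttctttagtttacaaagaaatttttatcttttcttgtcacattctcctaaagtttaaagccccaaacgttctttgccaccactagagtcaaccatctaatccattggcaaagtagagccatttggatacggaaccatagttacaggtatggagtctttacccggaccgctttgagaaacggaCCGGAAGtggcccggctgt
Mrps27: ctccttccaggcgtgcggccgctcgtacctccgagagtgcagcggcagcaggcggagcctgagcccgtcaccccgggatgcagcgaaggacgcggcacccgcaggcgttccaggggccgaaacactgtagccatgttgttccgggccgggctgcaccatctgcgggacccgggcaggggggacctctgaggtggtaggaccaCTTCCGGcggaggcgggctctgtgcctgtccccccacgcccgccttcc

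At Mrpl17 the CTCF core letters stood at positions -176 to -170 from the start, and the median CTCF summit lay 192 bp before it. The site, chr7:105810580-105811622, was in 3 STAG3, 13 STAG2 and 9 STAG1 lists, and the GSC summits of STAG3 lay 170, 173 and 135 bp before the start, those of STAG2 200, 229 and 172 bp before it and those of STAG1 214 and 174 bp before it. The ranges of the 3 proteins overlapped. At Mrps22 the STAG3 summits lay 209, 239 and 18 bp after the start, beyond the printed bases, and no STAG1 or STAG2 list had a peak. Mrps22 encodes a protein of the small subunit, in which inherited defects cause mitochondrial disease in humans. At Mrpl3 the STAG3 summits lay 3, 145 and 69 bp after the start. At Mrps27, which encodes a pentatricopeptide repeat protein of the small subunit, the STAG3 summits lay at -221, -103 and -225 bp from the start, and the ETS letters at positions -48 to -42.

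Over the whole 300-base promoters of the table (250 bases before and 50 after the start, both strands, overlapping matches allowed), the NRF1 letters were in 13 of 66 members, or 19.7%, beside 6.55% of 17426 other genes. The ETS letters were in 22 of 66 (33.3%, beside 11.8%) and the YY1 letters in 11 of 66 (16.7%, beside 3.17%). At least 1 of these 3 was in 39 of 66 members, or 59.1%, beside 19.4% of other genes. The CTCF core letters were in 3 members (4.55%, beside 12.7%), which were Mrpl17, Mrpl18 and Mrpl40. The letters CCAAT (39.4%, beside 39.0%) and GGGCGG (48.5%, beside 46.3%) were about as frequent in both, and the median GC content was 58.2% and 56.3%. A match to these letters is not a measured site.

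The comparison of STAG2 with STAG1 asked which members carried peaks of the one protein more often across the 5 cell types. 9 members were called, all with more STAG2 lists: Mrpl58, Mrps24, Mrpl14, Mrpl15, Mrpl2, Mrpl28, Mrps6, Mrpl43 and Mrpl41 (higher in 15.2% of all protein-coding genes, lower in 0.00914%). 9 of 75 members is a share below that of all genes. The test was an exact two-sided permutation of the list labels within each cell type, with Benjamini-Hochberg adjustment over all 21887 genes and a call at an adjusted p of 0.05. Mrpl58 had 13 of 13 STAG2 lists and 0 of 10 STAG1 lists, a difference of 100 percentage points (adjusted p = 0.0061, exact permutation). Mrps24 had 11 of 13 and 1 of 10, a difference of 76.7 points (adjusted p = 0.0157, exact permutation). Mrpl14 had 9 and 0, and Mrpl15 8 and 0. Mrpl2, Mrpl28 and Mrps6 had 11 and 2, Mrpl43 had 9 and 1, and Mrpl41 had 7 and 0. Their adjusted p lay between 0.0198 and 0.0362 by the exact permutation test. None of the 9 had CTCF in all 4 genotypes, and 8 had it in none. The CTCF share among the other called genes is not given here. Among other genes without CTCF, mean STAG1 shares ran from 0.392% in GSC to 7.26% in d4c7PGCLC. At an unadjusted p of 0.05, 31 members were higher and 0 lower. The share of all genes at that p was not counted, and the adjusted calls over all genes leaned the same way. 64 members leaned to STAG2, Mrpl19 and Mrps17 leaned to STAG1 and the rest to neither, with a median difference of 30 points beside 20 over all genes. 5 members were called without either ESC STAG2 list, a setting for which the share of all genes is not given here. When each peak went only to the nearest gene end, 4 were called (13.1% of all genes). With lists of equal length 1 was called, Mrpl58 (0.228% of all genes).

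Within single cell types, the members with a peak in every STAG2 list and no STAG1 list numbered 10 for ESC (19.8% of all genes), 26 for EpiLC (34%), 9 for d2PGCLC (13.8%), 7 for d4c7PGCLC (4.99%) and 5 for GSC (4.39%). As shares of the 75 members these were 13.3%, 34.7%, 12%, 9.33% and 6.67%, below the share of all genes for ESC and d2PGCLC and above it for the other 3. The reverse was met by no member in ESC (0.0548% of all genes), EpiLC (0.0137%), d2PGCLC (0.0183%) or GSC (0.0228%), and in d4c7PGCLC (0.649%) by Mrpl19, whose site at chr6:81956219-81956825 was in 2 STAG1 lists and 0 STAG2 lists and had CTCF in all 4 genotypes.

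Mrpl58 had the strongest STAG2 peak of any member in the STAG2 lists of GSC, EpiLC and d4c7PGCLC and ESC replicate 1. It encodes a peptidyl-tRNA hydrolase built into the large subunit, which releases unfinished peptides from stalled ribosomes. The peak lay at the far end of the gene, at chr11:115412183-115414302, and 1389 bp from the nearest end of Atp5h, which encodes a subunit of the mitochondrial ATP synthase. Its STAG2 fold enrichment was 148 and 95.3 in the ESC lists, 340 and 281 in the EpiLC lists, 40.6, 21.3 and 40.6 in the d2PGCLC lists, 90.1, 50.9 and 44.8 in the d4c7PGCLC lists and 128, 160 and 114 in the GSC lists. In GSC it ranked 96, 37 and 83 by fold enrichment among 25021, 13698 and 25979 peaks. The strongest GSC STAG2 peaks at any other member had fold enrichments of 26.1, 14.8 and 34.0. In d2PGCLC other members had stronger peaks, with fold enrichments up to 129, 95.0 and 103, as did Mrpl12 in ESC replicate 2, with 109. STAG1 had no peak at this site in any of 10 lists and CTCF none in 4, and STAG3 had fold enrichments of 5.26 and 4.89 there in replicates 2 and 3 and no peak in replicate 1. No input or control list was analysed here.

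The comparison of GSC with the other cell types asked at which members STAG2 and STAG1 were called less or more often in GSC. 9 members were called, all lower in GSC (6.44% of all genes, and 0.00457% higher), and none higher. At an unadjusted p of 0.05, 23 members were lower and 1 higher. The share of all genes at that p was not counted, and the adjusted calls over all genes leaned the same way. The test was the same exact permutation, with labels permuted within each protein. Mrps11 and Mrps30 had 0 of 5 GSC lists and 18 of 18 lists of the other cell types, a difference of -100 points (adjusted p = 0.00868, exact permutation). Mrps21 and Mrps26 had 0 of 3 GSC and 10 of 10 other STAG2 lists, and 0 of 2 GSC and 6 of 8 other STAG1 lists (difference -87.5 points, adjusted p = 0.0182, exact permutation). Mrpl11, Mrpl21, Mrpl44, Mrpl1 and Mrpl50 differed by between -83.3 and -75 points, with adjusted p between 0.0206 and 0.0428 by the exact permutation test. 8 of the 9 had CTCF in all 4 GSC genotypes and Mrpl50 had it in 3, so the CTCF peak was there in GSC, in mutant cells, where the wild-type lists had none or few STAG1 and STAG2 peaks. The CTCF share among the other genes called lower is not given here. 62 members leaned lower in GSC and 6 higher, with a median difference of -31.2 points beside -10 over all genes. The GSC lists were the shortest for each protein, between 9641 and 25979 peaks, and with lists of equal length none of the 9 was called. Without 1 GSC list, 4 were called for either STAG1 list and 3, 2 and 5 for STAG2 replicates 1, 2 and 3. The share of all genes called without these lists is not given here.

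STAG3 was present at all 9 of these genes, in 1 to 3 lists. At most of them, Mrps30 and Mrps11 included, it lay at another place than a site shared by STAG1 and STAG2. At Mrps30 the STAG1 and STAG2 site of the other cell types lay beyond the far end, chr13:118379087-118379753, in 0 STAG3, 10 STAG2 and 8 STAG1 lists, and the 2 STAG3 peaks lay 134 and 486 bp after the start. At Mrps11 the shared site inside the gene, chr7:78791430-78792265, had 0 STAG3, 10 STAG2 and 8 STAG1 lists. Its start faces that of Mrpl46, another member, and 2 STAG3 peaks of 1 list between them counted for both genes. At others of the 9, STAG3 shared a start site with STAG2 or STAG1. The Mrps26 site at the start, chr2:130563253-130564428, was in 3 STAG3, 10 STAG2 and 6 STAG1 lists, and none of the STAG1 and STAG2 lists was from GSC. The Mrpl11 site at the start, chr19:4961683-4962678, was in 2 STAG3, 11 STAG2 and 3 STAG1 lists and had CTCF in all 4 genotypes. Start sites of Mrpl44, Mrpl21, Mrpl1 and Mrps21 held STAG3 and STAG2 without STAG1 or CTCF. The CTCF sites of these genes away from the start were in 0 STAG3 lists. So were that of Mrpl50 inside the gene and that of Mrpl11 downstream. Each of these CTCF sites was in 10 or 11 STAG2 and in 4 to 8 STAG1 lists.

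In GSC, 12 members had a peak in every STAG3 list and in no STAG1 or STAG2 list, 16.0% of the members and 6.26% of all protein-coding genes. The reverse was met by 0 members (0.0503% of all genes). The 12 were Mrps34, Mrps26, Mrpl9, Mrps7, Mrpl30, Mrpl57, Mrpl3, Mrps35, Mrps31, Mrps22, Mrps10 and Mrpl51. Mrps34, a small-subunit protein without a bacterial relative, had STAG3 fold enrichments of 6.39, 10.1 and 9.58 at its strongest peak. Mrpl3 had 6.39, 8.24 and 6.45, and Mrps22 had 5.75, 6.63 and 5.48. Mrps10 counts here although 2 GSC STAG2 lists had a peak just beyond its window. No test was made for this count. Without STAG3 replicate 1, the shortest list, the count was 30 members (40.0%, beside 18.1% of all genes), and with lists of equal length it was 7. Peak names place the STAG3 lists in another working directory than those of STAG1 and STAG2, so a separate calling run and the protein cannot be told apart.

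The members were close to other genes. 51 of 75 (68.0%) had an end of another protein-coding gene within the window, beside 35.1% of the other genes, and the median gene length was 7749 bp beside 17222 bp. A peak between such genes counted for both. Among genes with a neighbouring end, STAG3 was at 74.5% ± 30.6 of members and 67.0% ± 24.6 of others, and STAG2 in ESC at 64.7% ± 5.55 and 67.0% ± 2.82 (SD, n = 3 and n = 2 lists). Among the 24 members without one, STAG3 was at 79.2% ± 25.3 of members and 40.7% ± 17.1 of others, and STAG2 in ESC at 75% ± 0 and 50.7% ± 0.654. In d4c7PGCLC STAG2 was at 62.7% ± 16.0 of members and 53.2% ± 11.5 of others where another gene end lay near, and at 73.6% ± 4.81 and 37.5% ± 6.90 where none did (SD, n = 3). For STAG3, and for STAG2 in d4c7PGCLC, the gap was wider where no other gene end lay near. Members with a near gene end lay below others for STAG2 in ESC, EpiLC (67.6%, beside 70.2%) and GSC (29.4%, beside 32.6%). They also lay below for STAG1 in ESC (34.3%, beside 35.9%), d4c7PGCLC (39.2%, beside 40.5%) and GSC (7.84%, beside 10.95%). STAG1 and STAG2 in d2PGCLC and STAG1 in EpiLC went the other way. Members without a near gene end lay above others except for STAG1 in GSC (8.33%, beside 8.39%).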

How the data were processed

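Per the submitters' processing notes, reads were trimmed with Trim Galore 0.4.1 and cutadapt 1.9.1 and aligned with Bowtie2 2.3.4.1, and MACS2 was used for peaks; its options and any control library were not given in the sources used. The deposited lists give each peak a fold enrichment, which the authors' caller computed as a ratio over background. They also give a −log10 p and a −log10 q, which the authors' caller computed and which were at least 2 for q. The deposited score is 10 times the −log10 q, per the file's values. STAG lists were per library and CTCF lists pooled.

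Peaks were assigned to genes of GRCm38.p6 within 2500 bp of either end, with Python 3.11.15, NumPy 2.4.6 and pandas 2.3.3. Exact permutation tests over lists were adjusted by Benjamini-Hochberg over 21887 genes and tested on simulated data. Genes were named by rank of STAG lists and by being called or counted; all 12 of the STAG3 count are named, as are examples chosen after their values were seen. The members and lists were chosen with earlier results of these data known. Start positions were known for 66 members; Mrpl4, Mrpl13, Mrpl15, Mrpl19, Mrpl38, Mrpl54, Mrps28, Mrps34 and Mrps35 had none in the table used. Alternatives were other windows, start only, nearest end only, stricter q, equal list lengths, symbols with a letter, the replicate number as a block, and each list left out.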

Additional observations from a re-analysis of the deposited data

How the results depend on the processing

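The count of 9 members with more STAG2 than STAG1 lists was 1 with lists of equal length (0.228% of all genes called) and 4 when a peak went only to the nearest gene end (13.1%). It ranged from 5 to 13 as each list was left out (5 without either ESC STAG2 list). The share of all genes called moved too, for example from 15.2% to 11.3% without ESC STAG1 replicate 2. The count of 9 members lower in GSC was 5 with a window of 1000 bp (2.88% of all genes called), 16 with 5000 bp (12.2%), 2 with annotated starts only (2.78%) and 2 with lists of equal length (2.07%), so the share of all genes moved with it. Those 2 were Mrps16, higher in GSC, and Mrpl4, lower, and neither was among the 9. As each list was left out, the count ranged from 2 to 10. The share of all genes called moved here too, for example to 5.14% without ESC STAG1 replicate 1 and to 7.41% without EpiLC STAG1 replicate 1. The count of 12 members with STAG3 alone in GSC was 7 with lists of equal length (4.30% of all genes), 3 of them among the 12. As GSC lists were left out it ranged from 12 to 30, the latter without STAG3 replicate 1 (18.1% of all genes). The 28 members with CTCF in all 4 genotypes became 44 with 5000 bp (44.1% of all genes) and 17 with annotated starts only (20.6%). The cause of these shifts was not tested. None of the 18 called differences took the opposite sign, but with lists of equal length 7 of the 9 STAG2 and 4 of the 9 GSC differences became 0. Mrpl15 became 0 at 5000 bp, Mrpl14 with the nearest end, and Mrps11 and Mrps30 with starts only. At equal length the share of members also fell below that of other genes in 3 STAG1 lists (ESC replicate 2 and both of EpiLC) and in GSC STAG2 replicate 3 (9.33%, beside 9.48%).

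With the replicate number as a block, 0 members were called in either comparison, and neither was any of the 21887 genes. The smallest adjusted p over all genes was 0.14 for STAG2 against STAG1 and 0.0585 for GSC, by the exact permutation test. At an unadjusted p of 0.05, 13 and 19 members passed, and the share of all genes at that p was not counted. Lists of the same number did not deviate together (correlations from -0.0254 to 0.0465 over 10 pairs), so they share only a number. Depth was unknown, and equal lengths are the closest available correction for it.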

Other observations

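Other genes of mitochondrial translation, in lists chosen with earlier results known, had STAG3 shares in GSC in the same range as the members' 76.0% ± 28.9. STAG3 was at 81.7% ± 27.5 of 20 genes for assembly of the mitochondrial ribosome, 86.7% ± 11.5 of 15 mitochondrial translation factors and 74.5% ± 34.5 of 17 mitochondrial aminoacyl-tRNA synthetases (SD, n = 3 lists). The 8 other subunit genes of the mitochondrial ribosome, whose symbols do not meet the rule, had the lowest mean of these lists, 66.7% ± 36.1. The 81 genes of the cytosolic ribosome had 73.3% ± 30.3, and all protein-coding genes had 50.0% ± 19.8. The values of these lists overlapped between replicates, and no test was made. CTCF was at 42.7% of the members and at 58.6% of the cytosolic ribosome genes, as means over 4 genotypes.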
